A study of Mus musculus with 6 samples.

Results

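The genes described here are 8 mouse genes of tendon and of gliding or cartilage-like surfaces: Prg4, Scx, Tnmd, Mkx, Comp, Cilp, Cilp2 and Chad. They were taken by symbol from the 43432 genes counted in each of 6 RNA sequencing libraries, and 8 of 8 were found. The study concerns mice in which Igf1, the gene of insulin-like growth factor I, is removed from fibro-adipogenic progenitors (FAPs), the connective tissue progenitors of skeletal muscle. The libraries fall into 3 labelled FID and 3 labelled Control. All 6 titles bear a D3 tag. The labels spell out neither FID nor D3, nor do they give the genotype of each group, the driver of the deletion or the strain. Per the labels' protocols, mice aged 12 to 13 weeks were given tamoxifen on 5 days, at a dose of 100 ug per g of body weight, then left for at least 1 week, and both sexes were used. The labels do not separate the groups in this, so FID and Control share the tamoxifen. They also do not state that each library is a separate animal, so every p-value reflects the spread of these libraries alone, which may be partly technical.

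Gene counts summed to 8750157, 9676812 and 9094185 in FID 1, 2 and 3 and to 5201853, 9994541 and 10093757 in Control 1, 2 and 3. Igf1 itself had 109, 107 and 81.6 CPM (counts divided by the TMM-adjusted library size) in FID 1, 2 and 3, against 134, 60.4 and 106 CPM in Control 1, 2 and 3. The groups overlapped, so the whole-gene count of Igf1 does not check the labels, and groups are named here by their labels. Transcripts of myofibres were scarce for a source labelled skeletal muscle. The labels' protocols also describe an RNA extraction from primary FAPs, without tying it to particular libraries. The creatine kinase gene Ckm had 0.420 to 1.19 CPM in FID and 0.101 to 0.976 CPM in Control. FID 3 and Control 2 carried transcripts of the Y-linked Ddx3y at 72.6 and 53.8 CPM with Xist at 0 and 0.507 CPM. FID 1, FID 2 and Control 1 had no Ddx3y count and had Xist at 30.4, 25.8 and 51.6 CPM. Control 3 carried both, with Ddx3y at 40.1 CPM and Xist at 13.7 CPM.

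Tendon cells are defined by the transcription factors scleraxis (Scx) and Mohawk (Mkx), which act in tendon formation and upkeep in mice. Scleraxis binds DNA at E-boxes together with broadly expressed E proteins, and tenomodulin (Tnmd), a membrane protein of tendon cells, is a known target of it in mice. The other genes encode secreted matrix proteins. Comp (cartilage oligomeric matrix protein, a thrombospondin) and Chad (chondroadherin, a leucine-rich repeat protein) bind collagens. Cilp and Cilp2 encode the cartilage intermediate layer proteins, and Cilp is known to oppose TGF-beta and IGF-I signals in cultured cartilage cells. Prg4 encodes lubricin, the glycoprotein that coats joint surfaces and tendon sheaths. In bulk RNA, fewer cells of a type and less RNA per cell cannot be told apart.

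Most of the reads of these genes came from Cilp and Prg4, while both tendon-defining transcription factors were near the detection limit. Lubricin was the only one of the 8 whose libraries separated by group, with every FID library below every Control library, as held for 12.3% of the genes tested. A single such gene among 8 is near that share. The other 7 were each highest in Control 1, as was Prg4, and Chad and Cilp2 were lower in FID than in Control on average through that library. None of the 7 genes tested passed edgeR's test over all genes.

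Per kilobase of exon, the mean level over the 6 libraries ran from Cilp at 85.6 ± 78.1 CPM per kb (SD, n = 6) through Prg4 at 56.8 ± 36.5 and Comp at 20.8 ± 20.5 to Tnmd at 7.79 ± 3.29 CPM per kb. Chad followed at 2.36 ± 3.75, Cilp2 at 0.926 ± 0.910, Scx at 0.613 ± 0.520 and Mkx at 0.271 ± 0.191 CPM per kb. These SD span both groups. Neighbours in this order kept their rank in 6 of 6 libraries for Prg4 over Comp, Comp over Tnmd, Tnmd over Chad and Chad over Cilp2. Cilp over Prg4, Cilp2 over Scx and Scx over Mkx held in 5 of 6 libraries, so these neighbours were not ordered in every library. Cilp and Prg4 together took 87.1%, 88.6% and 85.8% of the reads of the 8 genes in FID 1, 2 and 3 and 86.2%, 92.0% and 90.0% in Control 1, 2 and 3. All 8 genes together took 0.0565%, 0.0300% and 0.0225% of gene counts in FID 1, 2 and 3, against 0.165%, 0.0623% and 0.0736% in Control 1, 2 and 3. That share was lower in each FID library than in each Control library. Among the single genes this held for the CPM of Prg4 only, as for 12.3% of tested genes.

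**Figure D1:**
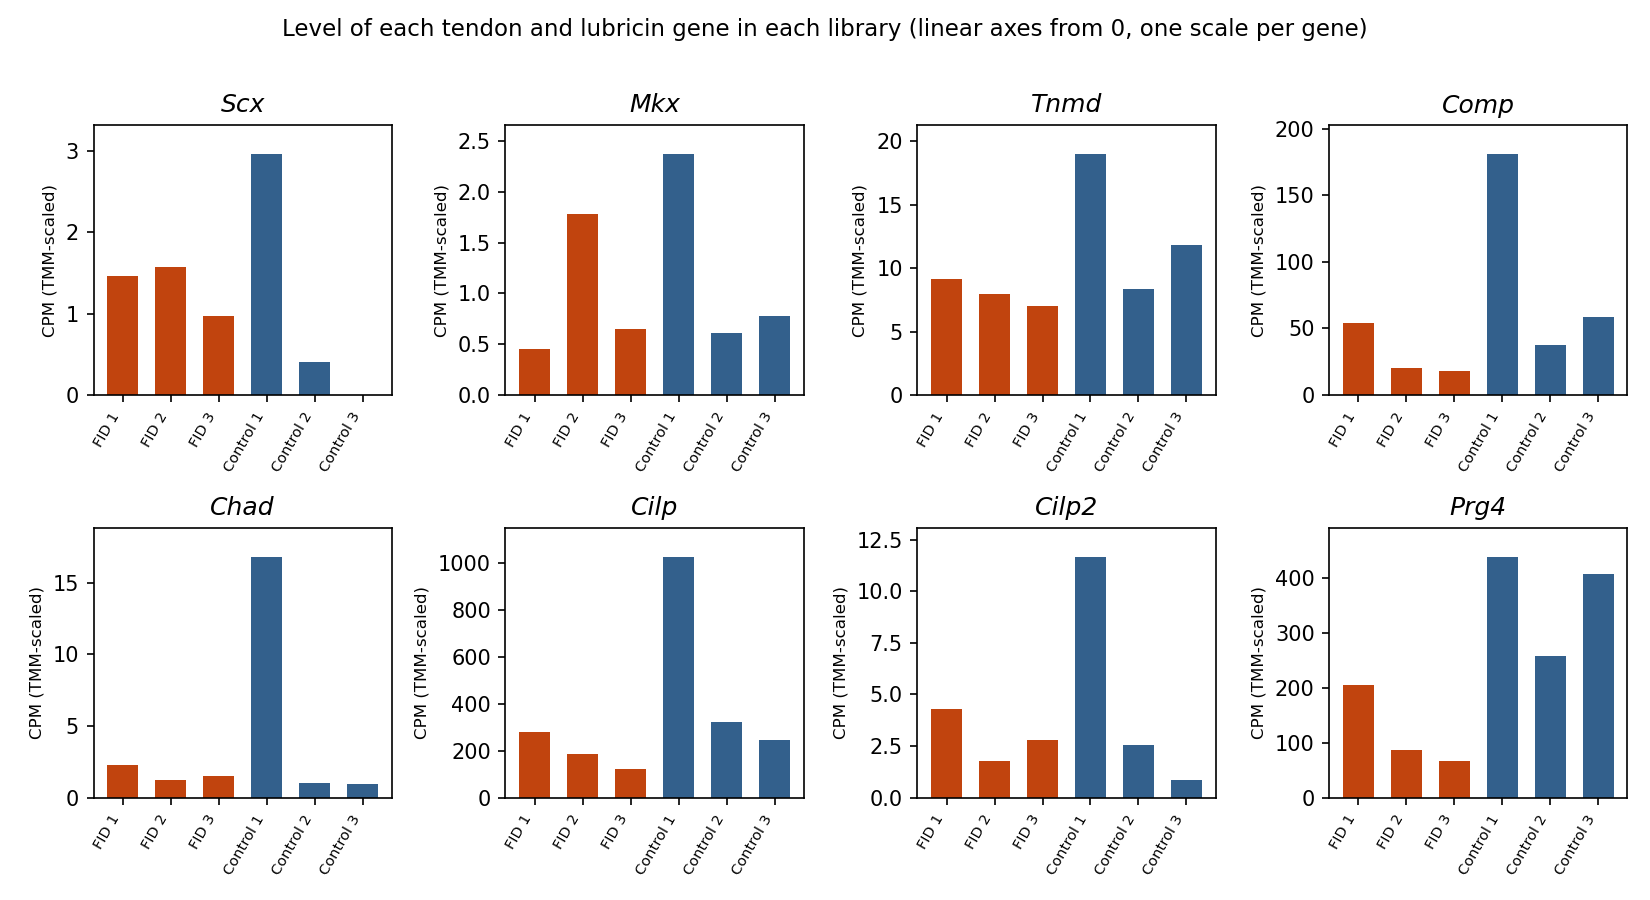
Level of each of the 8 genes in each library, in TMM-scaled CPM on a linear axis from 0 with its own scale per gene, FID libraries in orange and Control libraries in blue, 1 bar per library. Control 1 holds the highest bar in all 8 panels, and Prg4 is the gene whose FID bars all lie below its Control bars, at 66.9 to 205 CPM against 257 to 438 CPM.

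FID was tested against Control over 12881 genes with enough counts, by the quasi-likelihood test of edgeR, with p adjusted by Benjamini-Hochberg and a threshold of 0.05. It called 0 genes (0.00%), although 2449 had an unadjusted p under 0.05. DESeq2 called 764 genes (6.30%) and limma-voom 0. Of the 8 genes, 7 passed the filter on low counts and Mkx did not. A log2 fold change below 0 was found for 6 of the 7, where 52.2% of all tested genes had one, and their median was -1.44 against -0.02 over all tested genes. A log2 fold change below -1 was found for 4 of the 7 and for 2.35% of tested genes. An unadjusted p under 0.05 was reached by 3 of the 7 in the direction lower in FID, as by 9.21% of tested genes, and by 0 in the direction higher in FID, as by 9.81%. Without Control 1, 4 of the 7 lay below 0 (51.4% of tested genes) and Prg4 alone lay below -1 (1.07% of tested genes), and the median was -0.32. An unadjusted p under 0.05 was then reached by Prg4, lower in FID (8.76% of tested genes), and by Scx, higher in FID (11.2%). That count lower in FID was also 1 without FID 2, where 624 of the 12881 tested genes reached such a p. It was 1 without FID 3 as well, where 548 did, against 1186 with all libraries. The counts among the 7 describe genes that were chosen with earlier results of the same libraries known.

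Mkx (chromosome 18, 6934518 to 7004780, minus strand), a homeobox transcription factor, was below the filter. It had 4, 17 and 6 counts in FID 1, 2 and 3 and 12, 6 and 8 counts in Control 1, 2 and 3. The groups overlapped at 0.451 to 1.78 CPM in FID and 0.608 to 2.37 CPM in Control. With no filter on low counts its log2 fold change was -0.22 (SE 0.68, adjusted p 0.906 in edgeR).

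Scx (chromosome 15, 76457452 to 76459458, plus strand) was read at the limit of detection. It had 13, 15 and 9 counts in FID 1, 2 and 3, and 15, 4 and 0 counts in Control 1, 2 and 3. On the CPM scale that is 1.46, 1.57 and 0.972 CPM in FID 1, 2 and 3, against 2.97, 0.405 and 0 CPM in Control 1, 2 and 3. The 0 in Control 3 allows up to 3 counts, or 0.293 CPM, for counting error only. The FID libraries lay between Control 1 and the other Control libraries. The log2 fold change was 0.56 (SE 1.06, adjusted p 0.805 in edgeR). It was 2.67 without Control 1 and -0.14 without Control 3, and with so few reads it depends on the prior count of the fit. The gene lies wholly within Bop1, a ribosome assembly gene on the opposite strand, with no exonic overlap. No source used here states whether the counting used strand, so intronic reads of Bop1 may not be separated from Scx. Bop1 had 385, 351 and 449 counts in FID 1, 2 and 3 and 171, 513 and 438 counts in Control 1, 2 and 3. At this depth neither transcription factor gives a usable comparison, and the libraries do not show the markers that define tendon cells at more than a few CPM.

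Tnmd (chromosome X, 133850980 to 133865577, plus strand) varied 2.70-fold between its highest and lowest library. It had 9.13, 7.98 and 7.02 CPM in FID 1, 2 and 3, against 19.0, 8.31 and 11.8 CPM in Control 1, 2 and 3. The group means were 8.04 ± 1.05 CPM in FID and 13.0 ± 5.44 CPM in Control (SD, n = 3 each). FID 1 lay above Control 2, so the groups overlapped, and the log2 fold change was -0.67 (SE 0.31, adjusted p 0.288 in edgeR). Without Control 1 it was -0.32. Because Tnmd is a known target of scleraxis, the 250 bases before its RefSeq start site (build GRCm38.p6, chrX:133850758-133851007, plus strand) were searched for E-boxes, written CANNTG, a pattern that reads the same on both strands.
Tnmd: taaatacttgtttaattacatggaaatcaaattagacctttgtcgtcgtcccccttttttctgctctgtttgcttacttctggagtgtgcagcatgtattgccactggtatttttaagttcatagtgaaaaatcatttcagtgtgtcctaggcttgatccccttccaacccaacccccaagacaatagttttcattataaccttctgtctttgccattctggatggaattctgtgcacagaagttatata
No CANNTG occurs in these letters, which run past 133850980, the GENCODE start of Tnmd. Among 32851 windows of the same length before RefSeq starts, 66.2% hold at least 1 CANNTG, so its presence or absence in a window of this length is common.

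Comp (chromosome 8, 70373558 to 70382066, plus strand) had 54.3, 20.3 and 18.4 CPM in FID 1, 2 and 3, against 181, 37.7 and 58.4 CPM in Control 1, 2 and 3. FID 1 lay above Control 2 and close to Control 3, while FID 2 and FID 3 lay below every Control library. The means were 31.0 ± 20.2 CPM in FID and 92.4 ± 77.5 CPM in Control (SD, n = 3 each). The fitted log2 fold change was -1.57 (SE 0.66, adjusted p 0.255 in edgeR), and -0.64 without Control 1. Leaving out FID 1 gave -2.23. Comp shares no 25-base word with any of the other 7 transcripts, so reads of that length or longer would not be shared between them.

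Chad (chromosome 11, 94565047 to 94569127, plus strand), whose protein binds collagen and integrins in cartilage, varied 17.2-fold between its highest and lowest library. It had 2.25, 1.26 and 1.51 CPM in FID 1, 2 and 3, against 16.8, 1.01 and 0.976 CPM in Control 1, 2 and 3. In reads these are 20, 12 and 14 counts in FID and 85, 10 and 10 counts in Control. Control 1 stood 12.0-fold above the mean of the other 5 libraries, and every FID library lay above Control 2 and Control 3. The log2 fold change of -1.79 (SE 1.10, adjusted p 0.406 in edgeR) turned to 0.74 (SE 0.42, adjusted p 0.375 in edgeR) without Control 1, so its direction rests on that library. Chad lies within the span of Acsf2 on the opposite strand, with no exonic overlap, and Acsf2 had 232, 192 and 189 counts in FID 1, 2 and 3 and 182, 247 and 239 counts in Control 1, 2 and 3. Its upstream window (GRCm38.p6, chr11:94564797-94565046, plus strand) is shown beside that of Cilp because these genes follow the same high level in Control 1 at very different abundance. Capitals mark CANNTG.
Chad: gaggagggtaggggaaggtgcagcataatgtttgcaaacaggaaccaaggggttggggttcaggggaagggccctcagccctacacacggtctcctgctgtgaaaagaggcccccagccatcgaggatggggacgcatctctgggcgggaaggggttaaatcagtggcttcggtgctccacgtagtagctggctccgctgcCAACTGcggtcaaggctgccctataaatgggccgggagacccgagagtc
Cilp: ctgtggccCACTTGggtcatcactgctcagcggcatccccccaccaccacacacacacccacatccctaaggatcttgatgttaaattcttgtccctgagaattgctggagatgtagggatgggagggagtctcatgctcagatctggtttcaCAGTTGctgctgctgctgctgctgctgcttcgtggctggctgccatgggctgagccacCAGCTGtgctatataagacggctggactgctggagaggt
Chad holds 1 match, CAACTG, starting 49 bases before the start site. Cilp (chr9:65264930-65265179, plus strand) holds 3, starting 242, 97 and 39 bases before it. The window of Cilp2 (chr8:69887393-69887642, minus strand), also high in Control 1, is not printed here. It holds 1 match, CAGTTG, starting 156 bases before its RefSeq start site. That window lies inside the GENCODE span of Cilp2, 69880369 to 69887687, so by that annotation the match is within the gene. The mean over all windows is 1.16 matches, and a match is a description of the letters only.

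Cilp (chromosome 9, 65265180 to 65280605, plus strand) was the most abundant of the 8 genes per kilobase. It had 280, 184 and 123 CPM in FID 1, 2 and 3, against 1026 CPM in Control 1, 323 CPM in Control 2 and 245 CPM in Control 3. FID 1 lay above Control 3, so the groups overlapped, and FID 2 and FID 3 were the lowest libraries. The means were 196 ± 79.4 CPM in FID and 532 ± 430 CPM in Control (SD, n = 3 each). The fitted log2 fold change was -1.44 (SE 0.56, adjusted p 0.230 in edgeR), against -0.54 (SE 0.32, adjusted p 0.393 in edgeR) without Control 1.

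Cilp2 (chromosome 8, 69880369 to 69887687, minus strand) encodes the related intermediate layer protein and lies on the same chromosome as Comp. It was much scarcer, with 38, 17 and 26 counts in FID 1, 2 and 3 and 59, 25 and 9 counts in Control 1, 2 and 3. This gave 4.28, 1.78 and 2.81 CPM in FID 1, 2 and 3, against 11.7, 2.53 and 0.879 CPM in Control 1, 2 and 3. Control 1 was the highest library and Control 3 the lowest, so the Control libraries enclosed those of FID. The log2 fold change was -0.66 (SE 0.85, adjusted p 0.705 in edgeR). It was 0.79 without Control 1 and 0.19 in limma-voom, so its sign depends on that library and on the tool. The longest Cilp and Cilp2 transcripts share no 25-base word.

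Prg4 (chromosome 1, 150449412 to 150466165, minus strand) was lower in every FID library than in any Control library. It had 205, 86.1 and 66.9 CPM in FID 1, 2 and 3, against 438, 257 and 407 CPM in Control 1, 2 and 3. Within FID, FID 1 stood well above the others. The means were 119 ± 74.5 CPM in FID and 367 ± 96.7 CPM in Control (SD, n = 3 each), a 3.08-fold lower fitted level (log2 fold change -1.62, SE 0.43, adjusted p 0.143 in edgeR). DESeq2 gave an adjusted p of 0.00588 at the same size of change and called 2.41% of its genes lower in FID. In edgeR the call was also reached without FID 1, at -2.25 (adjusted p 0.0286), and with no filter on low counts, at -1.60 (adjusted p 0.0465). Without Control 1 the log2 fold change was -1.48 (adjusted p 0.157), so the size, unlike that of Comp, Cilp and Chad, did not rest on that library.

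Lubricin owes its coating function to a long mucin-like stretch of repeats that carries sugars. The most frequent in-frame 24-base unit of the longest annotated Prg4 transcript is printed here because these repeats bear on how reads are counted. The letters are those of the GENCODE transcript, in the direction of transcription.
Prg4 repeat: cccaaggagcctgaacccacaact
This unit occurs 18 times exactly in frame, and 53 times with at most 6 mismatches, between coding positions 1039 and 2352 of 3663. Of all 50-base words of that transcript, 18.1% occur more than once within it, against 1.78% of 100-base words and 0% of either length in the other 7 transcripts. The deposited files hold reads with several matches as an entry apart from the genes, so Prg4 may be counted low. Tpr, on the opposite strand, shares 204 exonic bases with Prg4. Tpr had 1248, 1056 and 758 counts in FID 1, 2 and 3 and 712, 1501 and 1673 counts in Control 1, 2 and 3.

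**Figure D2:**
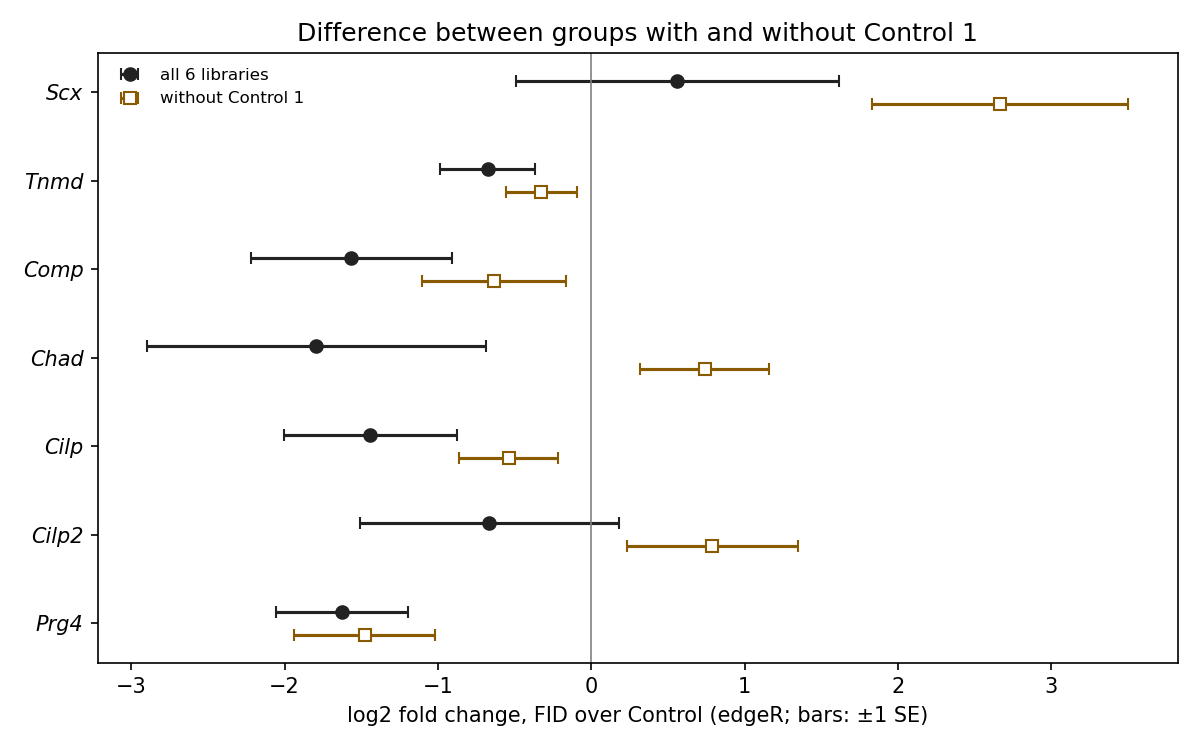
Log2 fold change of FID over Control from edgeR for the 7 genes tested, filled circles for all 6 libraries and open squares without Control 1, with bars of 1 SE. Prg4 is at -1.62 with all libraries and at -1.48 without Control 1, whereas Chad and Cilp2 change sign, to 0.74 and 0.79.

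Prg4 was also set against the stromal content of each library. Per 100 CPM of 12 FAP markers summed, Prg4 stood at 4.06, 1.35 and 1.20 CPM in FID 1, 2 and 3 and at 7.30, 4.13 and 6.28 CPM in Control 1, 2 and 3. The groups did not overlap on this scale, but FID 1 and Control 2 nearly met. Ly6a, the gene of the stem cell antigen Sca-1, went against most of the list, at 497, 2327 and 1890 CPM in FID 1, 2 and 3 and at 434, 446 and 662 CPM in Control 1, 2 and 3. With Ly6a left out of the sum, a choice made after the data were seen, Prg4 stood at 4.50, 2.13 and 1.82 CPM per 100 CPM in FID 1, 2 and 3 and at 7.87, 4.45 and 6.995 CPM in Control 1, 2 and 3, and FID 1 lay above Control 2. Per 100 CPM of Col1a1, the main collagen I chain, it stood at 1.42, 0.789 and 0.652 CPM in FID 1, 2 and 3 and at 1.88, 1.15 and 2.00 CPM in Control 1, 2 and 3, and FID 1 lay above Control 2. The 12 FAP markers summed to 5039 to 6367 CPM in FID and to 5998 to 6474 CPM in Control, and without Ly6a to 3684 to 4542 CPM in FID and 5564 to 5812 CPM in Control. Of the 12, 10 had a log2 fold change below 0, as did 52.2% of tested genes, and 0 were called by edgeR. DESeq2 called 4, with Col15a1, Mfap5 and Gsn lower in FID and Ly6a higher. It called 2.41% of its genes lower in FID and 3.89% higher. In edgeR an unadjusted p under 0.05 was reached by 5 of the 12, lower in FID (9.21% of tested genes). Ly6a reached it too, higher in FID (9.81%). The count of 5 was 3 without FID 2, FID 3, Control 2 or Control 3. In those fits 624, 548, 904 and 1414 of the 12881 tested genes reached such a p, lower in FID. Summed macrophage markers, 12 genes, ranged from 7379 to 10452 CPM in FID and from 3659 to 6005 CPM in Control. Of the 12 macrophage markers, 12 had a log2 fold change above 0, where 6151 of the 12881 tested genes did. EdgeR called 0 of them. An unadjusted p under 0.05 in edgeR was reached by 5 of them, as by 9.81% of tested genes higher in FID. Without Control 1 it was reached by 9, as by 11.2% of tested genes higher in FID. DESeq2 called 5, where it called 3.89% of its genes higher in FID. The part of these cell types in the lower Prg4 level was not tested.

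All 8 genes were highest in Control 1, the shallowest library, where 29.0% of tested genes had their highest level. All 8 also exceeded the mean of the other 5 libraries there by more than 2-fold, as 7.80% of tested genes did. The excess was smallest for Prg4 and Tnmd, at 2.15-fold each, and was 2.78-fold for Mkx, 3.36-fold for Scx, 4.44-fold for Cilp, 4.75-fold for Cilp2 and 4.79-fold for Comp. Markers of several other cell types were high in the same library. The 9 satellite cell and myoblast markers summed to 116 CPM in Control 1 and to 9.57 to 61.4 CPM in the other 5 libraries. The 10 myofibre markers summed to 60.7 CPM there and to 7.50 to 27.9 CPM elsewhere, and the 10 endothelial markers to 4707 CPM there and to 1326 to 2147 CPM elsewhere. The 10 pericyte and smooth muscle markers summed to 2534 CPM in Control 1 and to 836 to 1122 CPM elsewhere, and the 8 nerve sheath markers to 294 CPM and to 144 to 188 CPM. Summed FAP markers stood at 5998 CPM in Control 1, within the 5039 to 6474 CPM of the others. The 17 cartilage genes summed to 99.3 CPM in Control 1, also within the 57.5 to 100.2 CPM of the others. Sox9 alone gave 47.5 CPM of the sum in Control 1, and the single genes differed. Among those that passed the filter, Fgfr3, Col11a2, Col9a2, Acan and Sox6 were highest in Control 1. Sox9, Sox5 and Col2a1 were not. Fgfr3 had 16.6 CPM there and 2.64 to 12.1 CPM elsewhere, and Col11a2 had 9.69 CPM there and 0.540 to 2.37 CPM elsewhere. Of the 17, Snorc had no count in any library, and Col9a1, Col10a1, Matn1, Hapln1, Cnmd and Ucma stayed under 1 CPM in all. The part of these other cell types in the levels of the 8 genes was not tested.

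**Figure D3:**
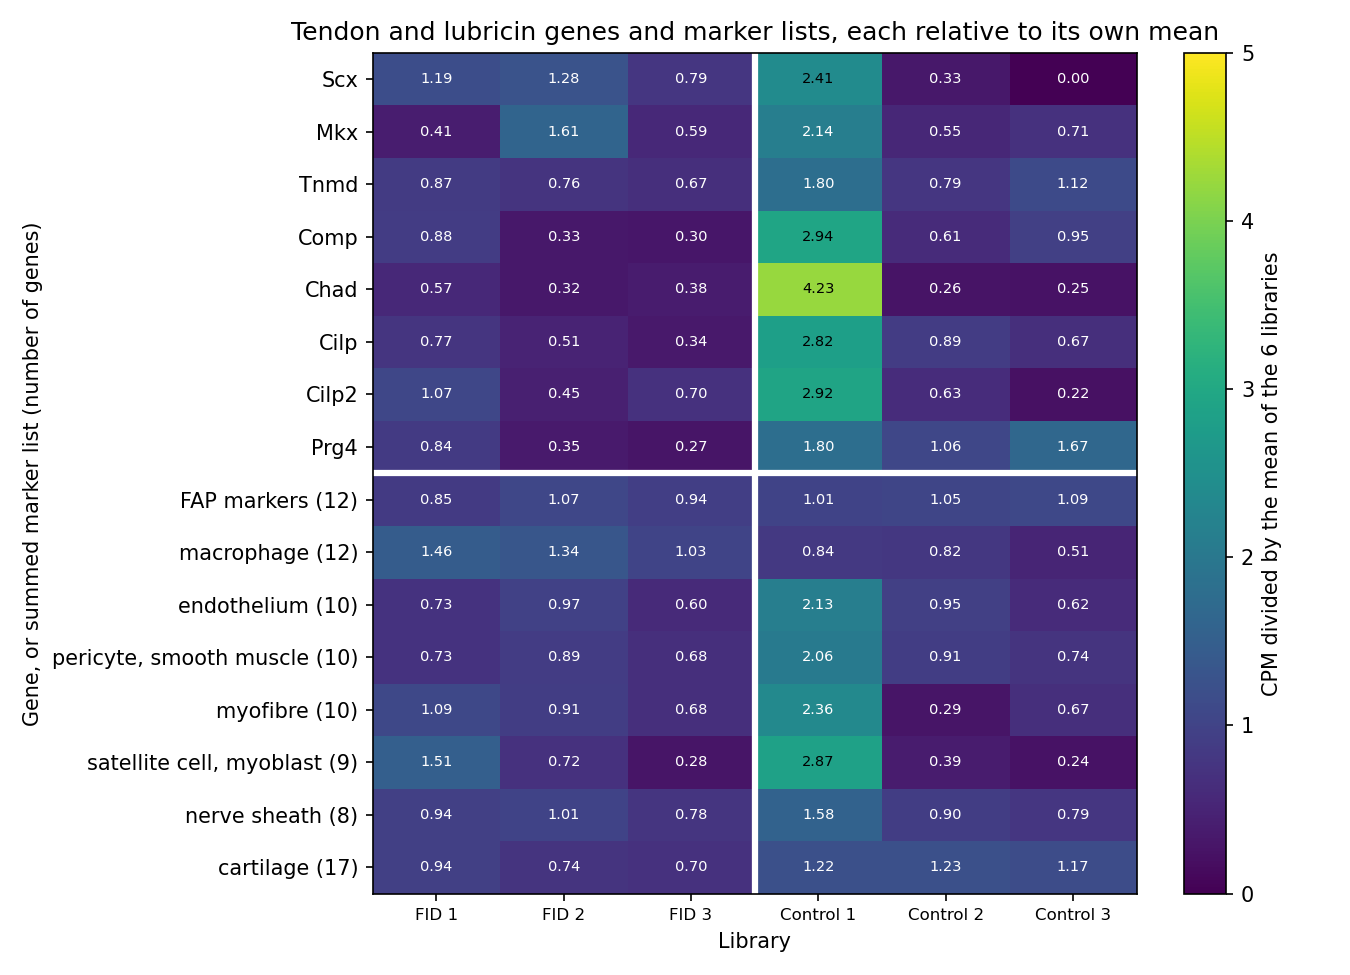
Level of each of the 8 genes (top) and of each summed marker list (bottom) in each library, divided by its own mean over the 6 libraries, with the ratio printed in each cell. Control 1 is the brightest column for all 8 genes, from 1.80 for Prg4 to 4.23 for Chad, and for the endothelial, pericyte, myofibre, myoblast and nerve sheath lists, but not for the FAP markers at 1.01.

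The profiles of the 8 genes across libraries were compared by the root mean square difference of log2 CPM centred on each gene's own mean, over 6 libraries. Among the 7 tested genes, Comp and Cilp were closest, at 0.39 log2 units, followed by Prg4 and Comp at 0.53. Prg4 and Scx were farthest apart, at 1.80. Against all tested genes, Prg4 was closest to Col16a1, a collagen of fibril surfaces, at 0.22, then to Sox11 at 0.23 and Tnn at 0.24, where the spread of Prg4 about its own mean was 1.03. Col16a1 stood at 209, 85.4 and 57.1 CPM in FID 1, 2 and 3 and at 407, 242 and 263 CPM in Control 1, 2 and 3. Tnmd was closest to Abi3bp, Prickle3 and Tshz3, at 0.092, 0.097 and 0.11. Comp was closest to Dusp8 at 0.29, Postn at 0.31 and Kcnma1 at 0.32. Cilp was closest to the noncoding imprinted H19 at 0.12, then Sox7 at 0.13 and Arid5a at 0.14. H19 stood at 225, 175 and 97.6 CPM in FID 1, 2 and 3, against 862, 242 and 178 CPM in Control 1, 2 and 3. The low-count genes were closest to other scarce transcripts. For Chad these were Vat1l, the myosin gene Myh1 and D030028A08Rik, at 0.44, 0.45 and 0.47. For Cilp2 they were Pdlim3, Il1a and the myoblast fusion gene Mymk, at 0.32, 0.34 and 0.40, and for Scx they were Tlr12, Synpo2l and Gm12751, at 0.34, 0.35 and 0.40.

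Other genes listed for tendon matrix and regulation were lower on average in FID, and none was called by edgeR. The list is not specific to tendon cells. It holds collagen genes such as Col1a1, and its Dcn and Lum are also among the FAP markers. Thbs4 is counted here and again among the thrombospondins. Of 24 listed, 23 were tested, 19 had a log2 fold change below 0 (52.2% of tested genes) and 4 above, with a median of -0.79. In edgeR 14 reached an unadjusted p under 0.05, lower in FID (9.21% of tested genes). Without FID 2, 9 did so, where 624 of the 12881 tested genes did. DESeq2 called 9, where it called 2.41% of its genes lower in FID. FID lay below Control without overlap for 12 of the 23, as for 12.3% of tested genes. Col12a1, a collagen on fibril surfaces, had 182, 104 and 135 CPM in FID 1, 2 and 3, against 411, 336 and 410 CPM in Control 1, 2 and 3 (log2 fold change -1.46, SE 0.22). The proteoglycan genes Bgn and Prelp had -0.66 (SE 0.14) and -0.87 (SE 0.19), and Col1a1 had -0.89 (SE 0.18). The edgeR adjusted p of these 4 genes ranged from 0.122 to 0.136.

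The tendon regulators Egr1 and Egr2 had log2 fold changes of 0.09 and -0.07. Thbs4, the thrombospondin most typical of tendon, had 829, 379 and 271 CPM in FID 1, 2 and 3 and 1615, 554 and 399 CPM in Control 1, 2 and 3. Like Comp, its relative, it was highest in Control 1, and the groups overlapped (log2 fold change -0.79, SE 0.60, adjusted p 0.498 in edgeR). The other thrombospondins Thbs1, Thbs2 and Thbs3 had -0.71, -0.01 (SE 0.16) and -1.06, so Thbs2 lay less than its SE from 0. All 4 lay below 0, where 52.2% of tested genes did, but 3 did without FID 2, Control 1, Control 2 or Control 3.

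Of 16 upstream signals of tendon genes listed, 13 were tested, and the median was -0.33. Of the 13, 12 lay below 0, as did 52.2% of all tested genes. EdgeR and DESeq2 called 0. In edgeR 3 had an unadjusted p under 0.05, lower in FID (9.21% of tested genes), against 1 without FID 2 (624 of 12881 tested genes). The median was -0.14 without Control 1. Tgfb3, a TGF-beta ligand, had 58.9, 66.1 and 50.2 CPM in FID 1, 2 and 3, against 166, 76.2 and 88.5 CPM in Control 1, 2 and 3 (log2 fold change -0.91, SE 0.29). Tgfb1 had 153 ± 15.5 CPM in FID and 153 ± 51.3 CPM in Control (SD, n = 3 each). Tcf3 and Tcf12, E proteins that pair with scleraxis, had -0.36 and -0.24, without overlap between groups. Of the 13 genes, 6 were lower in FID without overlap, as were 12.3% of tested genes. The E protein gene Tcf4 had -0.34, and its groups overlapped, with FID 1 at 186 CPM and Control 2 at 185 CPM. The growth factor gene Gdf5 had no count in any library.

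Of 17 cartilage genes, 8 passed the filter, and these 8 had a median of -0.79, with 0 called by edgeR or DESeq2. Their median was -0.46 without Control 1. An unadjusted p under 0.05 in edgeR was reached by 1 of them, lower in FID (9.21% of tested genes), and by up to 3 with a library left out. It was 3 without FID 1, where 1106 of 12881 tested genes were lower at such a p. It was 2 without FID 2, Control 1 or Control 3, where 624, 1128 and 1414 were. Sox9, the transcription factor of cartilage cells, had 43.5 ± 12.9 CPM in FID and 65.4 ± 15.6 CPM in Control (SD, n = 3 each), with overlap and a log2 fold change of -0.59 (SE 0.26, adjusted p 0.270 in edgeR). Sox6, which acts with Sox9, had 0.338 to 0.525 CPM in FID and 1.17 to 1.38 CPM in Control. Col2a1, the main cartilage collagen, stayed at 1.15 to 2.48 CPM in FID and at 2.37 to 3.24 CPM in Control.

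Receptors and partners of these proteins took both directions. Of 11 listed and tested, 6 had a log2 fold change below 0 (52.2% of tested genes) and 5 above, with a median of -0.01. The list includes Igf1 itself, whose value is that median. EdgeR and DESeq2 called 0. In edgeR 4 had an unadjusted p under 0.05, 2 lower and 2 higher in FID (9.21% and 9.81% of tested genes). That count of 4 was 1 without FID 2 or Control 2 and 2 without FID 3. In those fits 1307, 1765 and 1348 of 12881 tested genes reached such a p in either direction. Cd44, a receptor for lubricin, had 455 ± 56.9 CPM in FID and 422 ± 12.8 CPM in Control. Tlr4, which lubricin is also known to bind, had 40.1, 54.6 and 52.4 CPM in FID 1, 2 and 3, against 40.0, 28.2 and 30.0 CPM in Control 1, 2 and 3. Igf1r, the IGF-I receptor, had 21.3, 18.7 and 20.2 CPM in FID 1, 2 and 3, against 35.0, 24.5 and 31.9 CPM in Control 1, 2 and 3 (log2 fold change -0.60, SE 0.17, adjusted p 0.159 in edgeR).

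**Figure D4:**
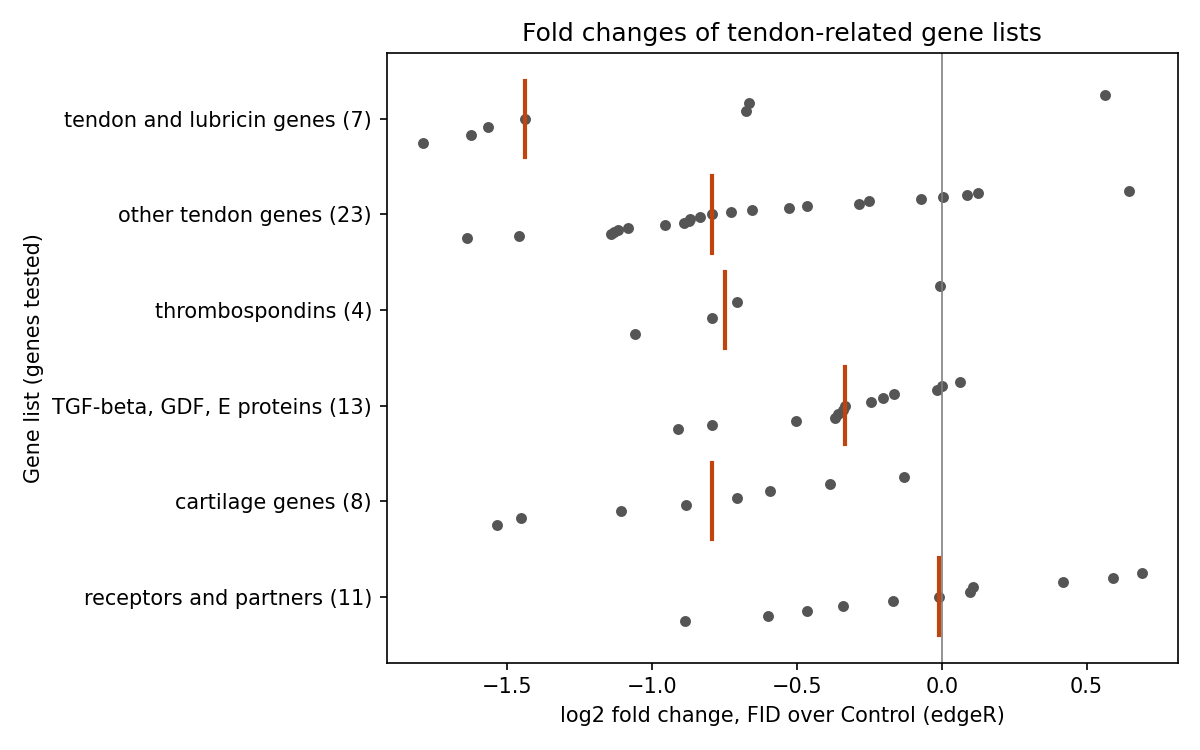
Log2 fold change of FID over Control from edgeR for each tested gene (grey points) of 6 lists, with the list's median as an orange line and the number tested in parentheses. The tendon and lubricin genes have a median of -1.44 with Scx alone above 0, but -0.32 with Scx, Cilp2 and Chad above 0 without Control 1. The other tendon and the cartilage genes have medians of -0.79, or -0.57 and -0.46 without Control 1, and receptors and partners lie near 0.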

How the data were processed

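RNA of 6 libraries (3 FID, 3 Control), labelled total RNA of mouse skeletal muscle, was sequenced after strand-specific library preparation, per the labels' protocols. The labels give a minimum RNA integrity number (RIN) of 5.6, the same for all 6 libraries. The authors deposited raw counts of reads per gene. Build mm10 and the tools STAR, HTSeq, cutadapt, SAMtools, Bowtie2 2.5.4 and DESeq2 are named, with no role for each, per the submitters' processing notes. Annotation release and strand setting: not given in the sources used here. Entries naming no gene (9.60% to 10.9% of each file) were left out. Symbols matched 42462 of 43432 identifiers. Coordinates and exon lengths are from GENCODE for mm10, and upstream windows for 4 of the 8 genes are from RefSeq (GRCm38.p6). Windows of Prg4, Comp, Scx and Mkx were not used here.

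Counts were filtered with filterByExpr (minimum count 10, minimum total 15), scaled by TMM and tested with edgeR 4.0.16 (quasi-likelihood, two-sided, group as the only term). SE was taken as the size of the log2 fold change over the root of F. Prior count was 2 for centred profiles. DESeq2 1.42.0, limma 3.58.1 (voom), RLE factors, no filter, a replicate block and leaving out each library were alternatives. Libraries of a group differed beyond sampling noise (chi-square per degree of freedom 14.1 to 46.0). The genes and lists were chosen with earlier results of these data known. Genes named beside the 8 are up to 4 with the smallest p in each list, those with a stated role toward a member, and the 3 closest profiles. Egr1, Egr2, Gdf5, Ckm, Fgfr3, Col11a2, Acan, Sox5, Tcf4, Dcn, Lum and the sex-linked genes were named after their values were seen.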

Additional observations from a re-analysis of the deposited data

How the results depend on the processing

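Prg4, Tnmd, Comp and Cilp kept a log2 fold change below 0 under all 11 alternatives. Leaving out 1 library gave -2.25 to -1.34 for Prg4, -0.91 to -0.32 for Tnmd, -2.23 to -0.64 for Comp and -1.78 to -0.54 for Cilp. It gave -0.14 to 2.67 for Scx, -1.19 to 0.79 for Cilp2 and -2.33 to 0.74 for Chad. Prg4 was called by DESeq2 (-1.63), with no filter (-1.60) and without FID 1, whereas none of the other 6 was called under any alternative. Cilp2 was at 0.19 in limma-voom. The number of genes called over the whole table was 0 in edgeR, 269 with no filter and 764 in DESeq2, and 0 to 319 with 1 library left out, the 319 without FID 1 and 3 without Control 1. The causes were not tested. With the replicate block, 0 genes were called. Same-numbered libraries did not deviate together (correlations of 0.0119, -0.295 and 0.320 for numbers 1, 2 and 3), so the numbers are not taken as pairs. Depth limits Scx, Mkx, Chad and Cilp2, which had at most 85 counts in a library.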
